A study of Mus musculus with 2 samples.

Results

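The imprinted growth network genes described here are H19, Igf2, Dlk1, Meg3, Peg3, Cdkn1c, Mest, Grb10, Plagl1 and Igf2r. They are 10 of the 24421 genes in the count table, chosen by name as imprinted genes of growth control that are active in fetal and regenerating tissue. All 10 were found in the table and all were measured, meaning that the control or the stretched library held over 3 counts. RNA was sequenced from the full thickness of back skin of wild type C57BL6/J mice. The control library came from skin left without strain at day 5 (14152379 counts) and the stretched library from skin put under an initial strain of 33% for 5 days, with strain added daily as the methods describe (11648655 counts). The methods describe female mice, 8 weeks old, in telogen, the resting phase of the hair cycle. How many animals went into each library is not given in the sources used here.

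Each condition had 1 library. There are no replicates, and no p-value is given for any difference. Levels are given as counts, as CPM (the count scaled to a common library total) and, for comparing genes with each other, as FPKM (CPM per kilobase of exon). Differences are ratios of CPM in stretched over control skin, usually on the log2 scale, where 0 is no difference. The exact 95% interval behind each ratio (Clopper-Pearson) covers counting error only and compares these libraries, not the conditions. In whole skin, a difference in the number of cells of a type and a difference in RNA per cell cannot be told apart.

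Imprinted genes are transcribed mainly from a single parental copy, marked in the germ line by DNA methylation. Many of them act on the size of the fetus: several paternally expressed genes promote growth, whereas several maternally expressed genes restrain it. Most are abundant before birth and decline in postnatal tissues, where some are switched on again during repair. Of the members, Igf2, Dlk1, Peg3, Mest and Plagl1 are known as paternally expressed and H19, Meg3, Cdkn1c, Grb10 and Igf2r as mainly maternally expressed. The counts do not separate the alleles, so they carry no measurement of imprinting itself.

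Igf2 and H19 were upregulated in stretched skin, by 5.40-fold and 2.23-fold. Dlk1 and Meg3, from another imprinted domain, were 2.19-fold and 1.84-fold higher. Grb10, Mest and Igf2r were higher by smaller factors, between 1.30-fold and 1.52-fold. The intervals of Plagl1 and Cdkn1c included no difference, and Peg3 was the only member with a lower level in stretched skin. Genes were called with the thresholds of the methods, requiring that the product of both FPKM values (EV) exceed 10 and that the levels differ at least 2-fold. The pseudocount of 1, added here to each FPKM for the product and the fold, is not part of the methods. With it, the fold used for the call was 4.75 for Igf2 and 2.22 for H19. Of the 9 members that passed the EV filter, 2 were called upregulated and 0 downregulated, whereas 2.61% of the 10910 genes that passed were upregulated and 2.44% were downregulated.

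By the counting interval alone, 7 of the 10 members lay above 0 and 1 lay below. Each member had at least 200 counts over both libraries. Among the 11370 genes with that many counts, 20.3% lay above 0 and 42.0% below, and among all 16255 genes measured the shares were 18.1% and 33.5%. A log2 difference of at least 1 was reached by 3 members (Igf2, H19 and Dlk1, the last at 0.998 once 1 CPM was added to both values), against 3.1% of the genes with at least 200 counts and 6.32% of all measured. A log2 difference of -1 or lower was found for 0 members, against 3.32% and 5.47%. The median log2 difference of the members was 0.58, and that of all genes measured was -0.12. Relative to the median of all genes, the members' median was 0.69 higher. The median was 0.55 for the 5 paternally expressed members, of which 3 lay above 0 and 1 below. The 5 maternally expressed members had a median of 0.60, and 4 lay above 0 and 0 below.

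**Figure D1:**
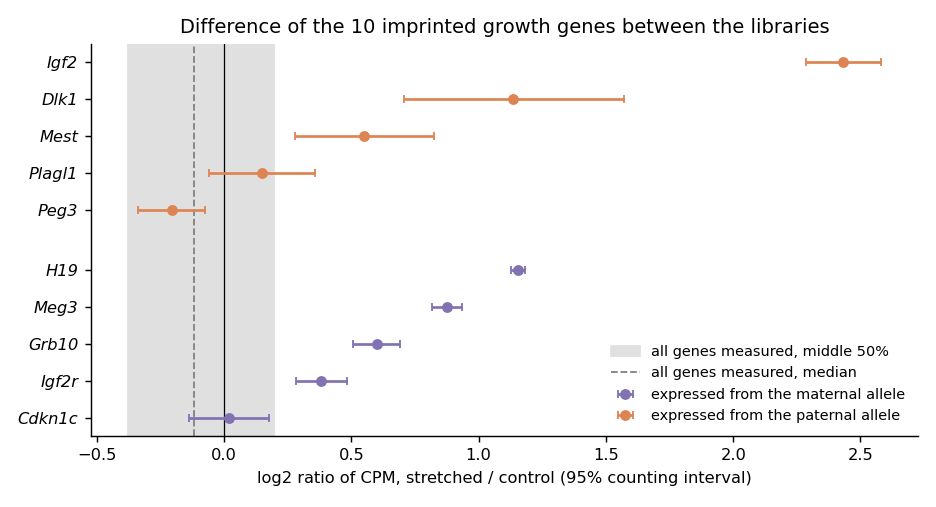
Log2 ratio of CPM in stretched over control skin (x axis) for each of the 10 genes, with 1 library per condition. Points are ratios, bars are exact 95% counting intervals, colours give the parental allele known to be expressed, the shaded band holds the middle 50% of all 16255 genes measured and the dashed line is their median of -0.12. Igf2 stood farthest to the right at 2.43, while Peg3 at -0.21 lay inside the band; with TMM scaling the interval of Peg3 included 0 and that of Plagl1 lay above 0.

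Igf2 encodes insulin-like growth factor II, a secreted fetal growth factor that signals through the IGF1 receptor. The gene (ENSMUSG00000048583) lies on chr7:142650766-142666816 of mm10, on the minus strand. The control library held 471 counts of Igf2 and the stretched library 2093, or 33.3 and 180 CPM. Its level per length was 5.82 FPKM in control skin and 31.4 FPKM in stretched skin. The stretched library was the higher one, with a log2 difference of 2.43 (95% interval 2.29 to 2.58). Only 0.634% of the genes measured had a larger ratio. Of the exonic bases of Igf2, 64.5% also belong to Gm49394, an annotated readthrough transcript, or to the antisense gene Igf2os. Reads from there cannot be told apart between these genes, and Gm49394 was not analysed here. Igf2os had 0 control counts and 8 stretched counts. Against a floor of 3 counts per library, the ratio of Igf2os was 3.24. Its counting interval started at 1.05 on the log2 scale and had no upper end.

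H19 is a spliced long noncoding RNA that shares enhancers with Igf2 and is transcribed from the opposite parental copy. The gene (ENSMUSG00000000031) lies on chr7:142575529-142578143, on the minus strand, downstream of Igf2. Its count was 15212 in the control library and 27861 in the stretched one, or 1075 and 2392 CPM. On the FPKM scale it stood at 437 and 972, by far the most abundant member in both libraries. Ranked by FPKM over all genes, H19 was at place 68 in control skin and at place 18 in stretched skin. The log2 difference was 1.15 (1.13 to 1.18), and 4.79% of the genes measured had a larger ratio. In control skin H19 made up 59.9% of the members' counts, and 66.7% when stretched.

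Both genes host microRNAs, and the mature forms are shown because their seeds (bases 2 to 8, in capitals) set which messages they pair with. The H19 exon carries miR-675 (5p arm chr7:142577112-142577133, 3p arm chr7:142577078-142577099). Igf2 carries miR-483 (5p arm chr7:142654968-142654989, 3p arm chr7:142654932-142654952) in an intron or at its boundary. All lie on the minus strand and are written 5′ to 3′ as in RefSeq for GRCm38.p6, the assembly that mm10 holds.
miR-675-5p: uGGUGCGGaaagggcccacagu
miR-675-3p: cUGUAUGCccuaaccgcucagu
miR-483-5p: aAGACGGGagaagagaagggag
miR-483-3p: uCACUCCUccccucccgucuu
No seed is shared between these arms. The hairpin genes Mir675 and Mir483 were listed at 0 counts in both libraries, so the rise of the host RNAs comes with no measurement of the mature microRNAs.

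The balance between the neighbours can be read without any scaling, as the ratio of 2 genes within a library. There were 32.3 counts of H19 per count of Igf2 in control skin and 13.3 in stretched skin. Per length, H19 exceeded Igf2 by 75.1-fold in control skin and 31.0-fold in stretched skin. Igf2 thus differed more between the libraries than H19 did, by a factor of 2.43 (2.19 to 2.69). This was 1 of 15 pairs compared within libraries, of which 7 had an interval that excluded equal ratios.

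Other genes around H19 and Igf2 did not share their direction as a group. Within 500 kb of the H19 start, 22 genes that are no members were measured: 6 lay above 0, 10 below, and 6 intervals included 0, with a median of -0.24. Of all genes measured, 18.1% lay above 0 and 33.5% below. Apart from the bound of Igf2os, only Igf2 exceeded H19 within that window. Tnni2 and Tnnt3, fast skeletal muscle troponin genes on the far side of H19, were lower in stretched skin. Tnnt3 had 35836 and 20444 counts, a log2 difference of -0.53 (-0.55 to -0.50). Tnni2 had 14814 and 7886 counts, a difference of -0.63 (-0.67 to -0.59). Between them, Lsp1, a leukocyte actin-binding protein, had 959 and 1743 counts and was upregulated, with a log2 difference of 1.14 (1.03 to 1.26). The keratin-associated Krtap5 genes of the hair shaft, farther downstream, were the lowest of the region.

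**Figure D2:**
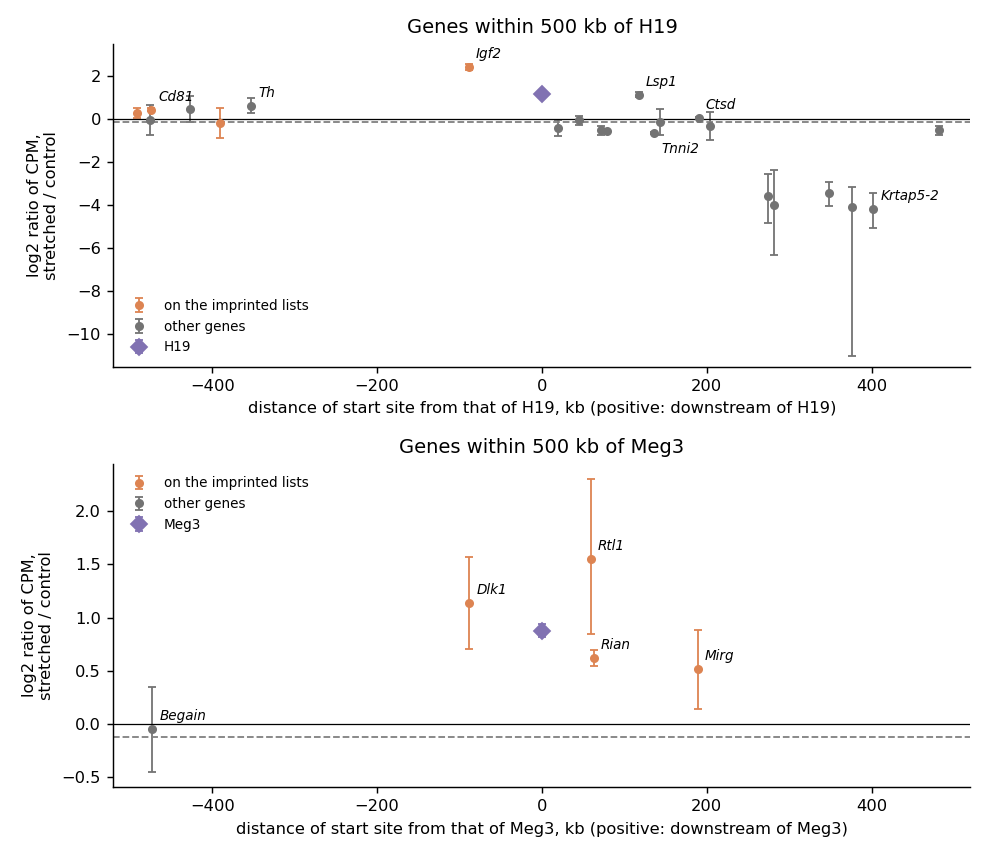
Log2 ratio of CPM in stretched over control skin (y axis) against distance of the start site in kb (x axis) for genes within 500 kb of H19 and of Meg3, 1 library per condition. Points are ratios and bars exact 95% counting intervals, with counts of 3 or fewer set to 3, the dashed line is the median of all genes and Igf2os is left out because its interval has no upper end. Around H19 only Igf2 lies above it, whereas around Meg3 the imprinted Dlk1, Rtl1, Rian and Mirg all lie above 0.

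RefSeq lists 4 start sites for Igf2. The 250 bases before the one nearest to the coding exons (chr7:142657497-142657746, GRCm38.p6, minus strand) are shown because this is the member with the largest difference. Capitals mark the only match to the letters searched.
Igf2 promoter: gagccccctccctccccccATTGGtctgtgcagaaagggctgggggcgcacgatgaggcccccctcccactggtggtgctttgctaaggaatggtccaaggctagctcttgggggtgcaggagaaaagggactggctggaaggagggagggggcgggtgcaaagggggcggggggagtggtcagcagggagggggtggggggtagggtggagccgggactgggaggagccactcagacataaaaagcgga
The search covered both strands for the TATA box (TATAAA), the CCAAT box (CCAAT), the cAMP response element (TGACGTCA), the PLAGL1 element (GGGGCCCC) and the E-box (CAGCTG). The single match here, ATTGG, is the CCAAT box on the other strand. CCAAT occurs in 33.8% of all 32536 promoter windows of this length. The other 3 Igf2 windows held none of these letters.

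The receptors and partners of IGF2 differed far less than the ligand. Igf2r encodes the receptor that carries IGF2 to lysosomes for breakdown, and so limits the ligand. The gene (ENSMUSG00000023830, chr17:12682406-12769664, minus strand) had 1590 control counts and 1706 stretched counts, or 112 and 146 CPM. The log2 difference was 0.38 (0.28 to 0.48). Per length, Igf2 stood at 0.482 of the Igf2r level in control skin and at 1.995 times it in stretched skin. The ratio between the genes thus differed by a factor of 4.14 (3.66 to 4.69). Airn, the antisense noncoding RNA that silences the paternal Igf2r copy, had 37 counts in each library, too few to separate its ratio from that of Igf2r (1.07, 0.658 to 1.75). No other gene measured within 500 kb of Igf2r had a larger ratio. Of these 15 genes 0 lay above 0 and 6 below, against 18.1% and 33.5% of all genes measured. The lowest gene listed for the domain was Slc22a3, an organic cation transporter, with 111 and 66 counts (-0.47).

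Grb10 encodes an adaptor that binds the insulin and IGF1 receptors and dampens their signalling. The gene (ENSMUSG00000020176, chr11:11930508-12038683, minus strand) had 1753 control counts and 2186 stretched counts, or 124 and 188 CPM. Stretched skin was 1.52-fold higher, a log2 difference of 0.60 (0.51 to 0.69). Of its 4 measured neighbours within 500 kb, 2 lay above 0 and 2 below, against 18.1% and 33.5% of all genes measured. Ikzf1, a lymphoid transcription factor, had 87 and 184 counts (log2 1.36). Fignl1, which acts in DNA repair, had 290 and 104 counts (-1.20). Grb10 therefore stood between neighbours of opposite direction.

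Of 36 genes of the IGF axis listed (ligands, receptors, binding proteins and signalling partners, with Igf2, Igf2r and Grb10 among them), 33 were measured. Of these, 14 lay above 0 (42.4%, against 18.1% of all genes measured) and 11 below (33.3%, against 33.5%). Of the 26 that passed the EV filter, 2 were called upregulated and 0 downregulated, against 2.61% and 2.44% of all genes that passed. Leaving out the 3 members, 11 of 30 lay above 0 and 11 below, and 1 was called upregulated. The median of the 33 was -0.03, close to that of all genes, and it turned to 0.07 with TMM scaling. Igf1, the main postnatal ligand, had 1314 control counts and 1258 stretched counts, a log2 difference of 0.22 (0.11 to 0.33). Per length, the level of Igf2 was 0.620 of that of Igf1 in control skin and 2.88 times that of Igf1 in stretched skin. The order of the ligand messages was therefore opposite in the 2 libraries. The signalling receptor Igf1r had 1002 and 748 counts, a difference of -0.14, with an interval from -0.28 to just below 0. Insr, the insulin receptor, also stood at -0.14 (-0.28 to 0.01).

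The binding proteins, which carry IGFs and control their access to the receptor, did not move together. Igfbp2 was the other gene of the list called upregulated, from 539 to 1037 counts, with a log2 difference of 1.22 (1.07 to 1.38). Igfbp6, a binding protein that prefers IGF2, had 1501 and 1990 counts, a difference of 0.69. Igfbp3 stood at 0.30 and Igfbp7 at 0.33. Igfbp4 stood at -0.17 and Igfbp5 at -0.09, and Igfbp1 was listed at 0 in both libraries. Igfals, the acid-labile subunit of circulating IGF complexes, was lowest of the list at 139 and 53 counts (-1.11). Among the RNA-binding proteins that attach to the Igf2 message, Igf2bp2 had 155 and 170 counts (0.41, 0.09 to 0.74). Igf2bp3 had 116 and 95 counts (-0.01), while Igf2bp1, with 4 and 3, was close to the floor.

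Dlk1 and Meg3 lie together in an imprinted domain on chromosome 12. Dlk1 encodes a membrane protein related to Notch ligands that restrains the differentiation of fat and muscle precursors. The gene (ENSMUSG00000040856, chr12:109452823-109463336, plus strand) had 72 control counts and 130 stretched counts, or 5.09 and 11.2 CPM. It was the least abundant member, at 0.899 and 1.97 FPKM. The log2 difference was 1.13 (0.71 to 1.57), with the intervals of the levels apart. Its EV of 5.65 was under the filter, and its fold for the call, with the pseudocount, was 1.57, so Dlk1 was not called. Of 10 genes listed for DLK1 signalling and fat cell differentiation, 2 lay above 0 and 8 below, with a median of -0.46, against 18.1% above and 33.5% below among all genes measured. Pparg and Fabp4, among the lower ones, are also on the adipocyte marker list, of which 8 of 8 lay below 0. Notch1, the receptor whose ligands DLK1 resembles, was lowest, with 4092 and 1631 counts (-1.05).

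Meg3 is a maternally expressed long noncoding RNA at the head of a chain of noncoding transcripts. The gene (ENSMUSG00000021268, chr12:109541001-109571726, plus strand) had 3806 control counts and 5749 stretched counts, or 269 and 494 CPM. Per length, it stood at 14.9 and 27.3 FPKM. The log2 difference was 0.88 (0.82 to 0.94), short of the 2-fold threshold. Dlk1 and Meg3, expressed from opposite alleles, did not differ from each other beyond counting error in their ratios (1.20, 0.887 to 1.62).

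The other imprinted genes of the domain went both ways. Rtl1, a retrotransposon-derived coding gene, had 24 and 58 counts, a log2 difference of 1.55 (0.84 to 2.30). Rian, a host of small nucleolar RNAs, had 2670 and 3382 counts (0.62, 0.55 to 0.70). Mirg, the host of the microRNA cluster at the end of the chain, had 114 and 134 counts (0.51, 0.14 to 0.89). Rian therefore differed less than Meg3, by a factor of 0.839 (0.785 to 0.896), whereas the factor for Mirg, 0.778, had an interval that included equality (0.600 to 1.01). Of the 10 genes listed for the domain, 5 lay above 0 (18.1% of all genes measured), 1 below (33.5%) and 4 included 0. The lower one was Dio3, also imprinted, which encodes an enzyme that inactivates thyroid hormone, with 23 and 7 counts (-1.44, -2.90 to -0.17). Begain, Wdr25, Wars and Ppp2r5c, at the edges, had intervals that included 0.

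The Meg3 promoter is shown because the data follow several transcripts of its chain, with motif matches in capitals. It comprises the 250 bases before the first RefSeq start (chr12:109540746-109540995, GRCm38.p6, plus strand).
Meg3 promoter: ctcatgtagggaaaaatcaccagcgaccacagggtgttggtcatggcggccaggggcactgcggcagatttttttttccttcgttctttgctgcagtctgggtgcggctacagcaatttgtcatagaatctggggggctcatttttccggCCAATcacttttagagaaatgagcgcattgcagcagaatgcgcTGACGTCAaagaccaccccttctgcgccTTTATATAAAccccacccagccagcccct
The window holds CCAAT, then TGACGTCA and, near its end, TATAAA on both strands in overlap, so that 2 matches run together. TATAAA occurs in 12.3% of all promoter windows and TGACGTCA in 1.56%. The Dlk1 window (chr12:109452573-109452822) holds none of the letters searched. An exon of Meg3 also carries miR-770 (5p arm chr12:109563710-109563731, 3p arm chr12:109563744-109563765, plus strand), whose hairpin gene was listed at 0 in both libraries.
miR-770-5p: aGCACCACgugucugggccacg
miR-770-3p: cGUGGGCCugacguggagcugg
Neither seed matches a seed of the H19 and Igf2 microRNAs.

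Cdkn1c encodes p57, a cyclin-dependent kinase inhibitor that restrains fetal growth. The gene (ENSMUSG00000037664, chr7:143458339-143461050, minus strand) belongs to the domain next to H19 and Igf2, yet its level was nearly the same in both libraries. It had 732 control counts and 611 stretched counts, or 51.7 and 52.5 CPM, a log2 difference of 0.02 (-0.14 to 0.18). At 25.4 FPKM it was the second most abundant member in control skin. Against H19, its ratio differed by a factor of 0.456 (0.408 to 0.509). Kcnq1ot1, the noncoding RNA that silences the paternal Cdkn1c copy, had 228 and 166 counts (-0.18, -0.47 to 0.12). Phlda2, a placental growth inhibitor of the same domain, had 40 and 10 counts and was lower (-1.72, -2.88 to -0.69). Of the Cdkn1c exon bases, 30.7% overlap the antisense gene Gm44732, and the counting is not stated to use strand.

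Cell cycle genes were set beside it. Of 22 listed, 21 were measured, of which 0 lay above 0 and 19 below (90.5%, against 33.5% of all genes measured), with a median of -0.85. All 21 passed the EV filter, and 1 was called downregulated, against 2.44% of the genes that passed. Top2a, which untangles replicated DNA, was the one called downregulated with the pseudocount of 1, from 2624 to 978 counts (log2 -1.14). Without a pseudocount, 4 of the 20 that passed the filter were called, with Mki67, Ccnb1 and Aurkb added. Of all genes that then passed, 2.86% were called downregulated. Mki67, the gene of the Ki-67 proliferation marker, had 2847 and 1126 counts (-1.06). Ccnb1, a mitotic cyclin, stood at -1.05, and Aurkb, a mitotic kinase, at -1.03. Bub1, a mitotic checkpoint kinase, was lowest at -1.31. The other inhibitors of the Cip/Kip family gave 0.06 for Cdkn1a (p21, 3352 and 2877 counts) and -0.45 for Cdkn1b (p27, 1028 and 619 counts). Hair follicle markers moved with the cell cycle genes, with 8 of 8 called downregulated and a summed level of 8527 CPM in control and 1569 CPM in stretched skin. Among them, Krt71 had 60382 and 8796 counts, and Shh 335 and 114. The methods describe skin in telogen, and whether the control skin was in that phase was not tested. The part of the hair follicle in the cell cycle result was not tested.

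Plagl1 and Peg3 are zinc finger transcription factors, and Plagl1 is known to activate other imprinted genes, Igf2 and H19 among them. Plagl1 (ENSMUSG00000019817, chr10:13060504-13131694, plus strand) had 399 control counts and 364 stretched counts, or 28.2 and 31.2 CPM. Its log2 difference was 0.15 (-0.06 to 0.36), and the interval rose above 0 with every other scaling (0.04 to 0.46 with TMM). The lowest gene of its domain list was Ltv1, a ribosome assembly factor, at -0.22. Peg3 (ENSMUSG00000002265, chr7:6703892-6730431, minus strand) had 1156 control counts and 825 stretched counts, or 81.7 and 70.8 CPM. Its difference was -0.21 (-0.34 to -0.08), close to the median of all genes, and 60.4% of genes measured had a larger ratio. With TMM, the interval of Peg3 included 0 (-0.23 to 0.03). Its neighbour Zim1 had 108 and 69 counts, and the ratio of Peg3 to Zim1 did not differ beyond counting error (1.12, 0.807 to 1.55). All 10 other genes measured within 500 kb of Peg3 had intervals that included 0, and Usp29, which starts beside Peg3, had 9 and 3 counts.

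Of the 8 members with a promoter entry, Peg3 is the only one whose window held GGGGCCCC, a motif of PLAGL1, and the window is shown as a contrast to Igf2 and Meg3. It covers chr7:6730420-6730669 (GRCm38.p6, minus strand).
Peg3 promoter: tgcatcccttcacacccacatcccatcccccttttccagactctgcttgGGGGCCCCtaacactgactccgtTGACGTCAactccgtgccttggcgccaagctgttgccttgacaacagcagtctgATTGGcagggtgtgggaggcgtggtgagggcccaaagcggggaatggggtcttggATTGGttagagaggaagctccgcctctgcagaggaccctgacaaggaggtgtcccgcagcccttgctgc
Capitals mark GGGGCCCC, TGACGTCA and CCAAT, the last found 2 times on the other strand as ATTGG. GGGGCCCC occurs in 0.885% of all promoter windows. The letters of the cAMP response element are present both here and before Meg3, and their part in either difference was not tested.

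Mest encodes an enzyme of the hydrolase fold that is abundant in mesoderm of the fetus. The gene (ENSMUSG00000051855, chr6:30723547-30748465, plus strand) had 204 control counts and 246 stretched counts, or 14.4 and 21.1 CPM. Stretched skin was 1.47-fold higher, a log2 difference of 0.55 (0.28 to 0.83). Copg2, a coat protein gene of vesicles that runs towards Mest from the other strand, had 1358 and 884 counts and was lower (-0.34, -0.46 to -0.22). Mest and Copg2 share 23.1% of the exon bases of Mest, and reads there cannot be told apart without strand. Of the 9 genes measured within 500 kb, 1 lay above 0 and 5 below, against 18.1% and 33.5% of all genes measured. The higher one was Klf14, an imprinted zinc finger gene, with 1 count in control skin and 17 in stretched skin.

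Set in order of their ratios, the members differed beyond counting error at 4 of the 9 places between neighbours. Igf2 stood above H19 by 1.28 on the log2 scale (1.13 to 1.43). H19, Dlk1 and Meg3 followed, and Dlk1, with few counts, differed from neither H19 nor Meg3 beyond counting error. The intervals of H19 (1.13 to 1.18) and Meg3 (0.82 to 0.94) themselves did not overlap. Meg3 lay above Grb10 by 0.28 (0.17 to 0.39). Grb10, Mest and Igf2r did not differ between neighbours in that order, and neither did Plagl1 and Cdkn1c. The intervals of Grb10 (0.51 to 0.69) and Igf2r (0.28 to 0.48) themselves did not overlap. Igf2r lay above Plagl1 by 0.23, with an interval of 0.0021 to 0.47 that nearly reached 0. Cdkn1c lay above Peg3 by 0.23 (0.02 to 0.43). Summed, the 10 genes held 0.179% of control and 0.359% of stretched counts, a ratio of 1.998 (1.97 to 2.03). Without H19, which dominates the sum, the ratio was 1.66 (1.62 to 1.70).

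**Figure D3:**
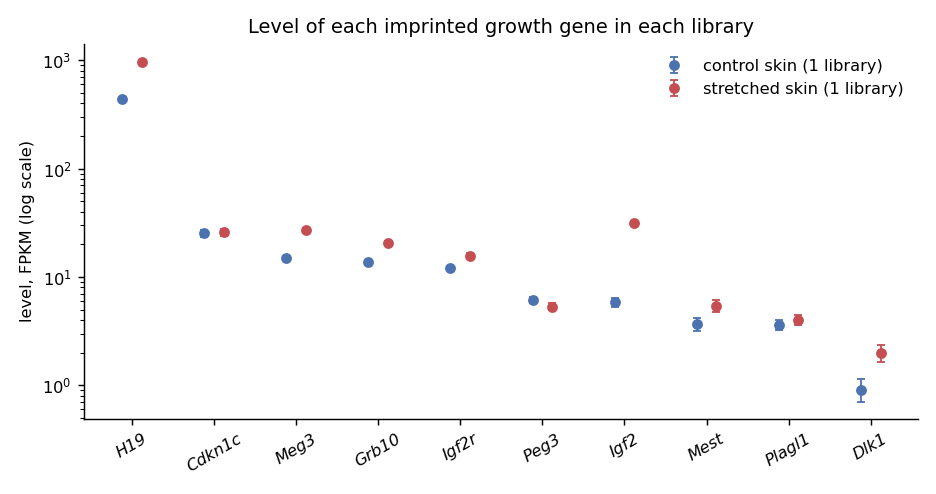
Level of each of the 10 genes in FPKM (y axis, log scale) in the control and the stretched library, 1 library each. Points are levels and bars are exact 95% counting intervals, and genes are ordered by their level in control skin. H19 at 437 and 972 FPKM lies far above the other members, and Igf2 moved from 5.82 to 31.4 FPKM, from below Cdkn1c to above it.

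Other imprinted genes had a median near that of all genes. Of 56 listed, 49 were measured, of which 13 lay above 0, 10 below and 26 included 0. These are 26.5% above and 20.4% below, against 18.1% and 33.5% of all genes measured. Of the 24 that passed the EV filter 0 were called, against 2.61% upregulated and 2.44% downregulated among all genes that passed. The median of the 49 was -0.07, and it turned to 0.03 with TMM scaling. Zdbf2, a paternally expressed gene active in the hypothalamus, had 45 and 107 counts, a log2 difference of 1.53 (1.02 to 2.07). Peg10, a retrotransposon-derived gene needed in the placenta, had 97 and 167 counts (1.06, 0.70 to 1.44). Necdin (Ndn), a growth suppressor, had 507 and 531 counts (0.35). Gnas, which encodes a stimulatory G protein subunit, had 11084 and 10674 counts (0.23). Ube3a, a ubiquitin ligase, had 640 and 353 counts (-0.58). Phlda2 and Klf14 marked the ends of the list, and Klf14 rests on 1 control count.

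**Figure D4:**
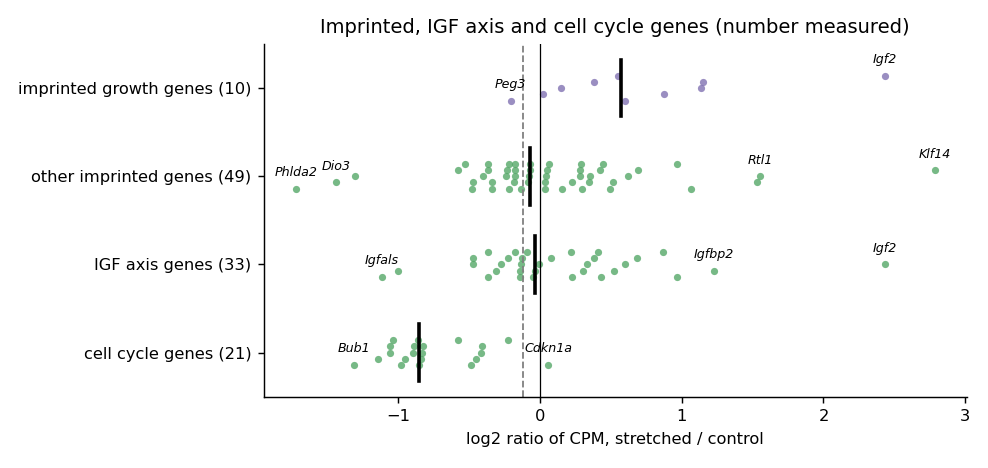
Log2 ratio of CPM in stretched over control skin (x axis) for each gene measured (points) of 4 lists, with the list median as a black bar, 1 library per condition. The dashed line is the median of all genes, numbers in brackets count the genes measured and Klf14 is drawn at its 3-count bound. The imprinted growth genes had a median of 0.58, the other imprinted genes -0.07, the IGF axis -0.03 and the cell cycle genes -0.85; the medians of -0.07 and -0.03 turn above 0 with TMM scaling.

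Markers of cell types in whole skin also differed between the libraries, and their counts stand against 18.1% above 0 and 33.5% below among all genes measured. The developing muscle list, which holds embryonic and neonatal muscle genes, had 11 of 12 markers above 0 and 0 below. Its summed level was 96.3 CPM in control skin and 1535 CPM in stretched skin, and embryonic myosin (Myh3) had 59 and 4637 counts. The adult skeletal muscle list had 10 of 12 markers below 0 and 2 above, and its sum was 34480 and 24034 CPM. The 2 higher ones were the myosins Myh1 (log2 1.10) and Myh2 (1.46). Among the lower ones, Myh4 stood at -4.57 and Acta1 at -0.07. Fibroblast markers were above 0 for 10 of 10, with a median of 0.70 and sums of 41411 and 78991 CPM. Most of these sums is from the collagens Col1a1, Col1a2 and Col3a1. Of the others, Vim and Fbln1 were 2.26-fold and 2.15-fold higher, and Twist2 and Fn1 1.44-fold and 1.41-fold. Pdgfra, Lum and Dpt were 1.13-fold, 1.19-fold and 1.17-fold higher. Macrophage markers were above 0 for 7 of 8, with sums of 665 and 1539 CPM. Adipocyte markers were below 0 for 8 of 8 (1862 and 1207 CPM). Keratinocyte markers were above 0 for 4 of 8 and below for 3, with sums of 15008 and 15850 CPM. The 3 lower ones were Dsg3 (-0.79), Ivl (-0.53) and Trp63 (-0.49). Endothelial markers were above 0 for 5 of 8 and below for 1, with a median of 0.53 and sums of 259 and 349 CPM. Pericyte and smooth muscle markers were above 0 for 3 of 6 and below for 2 (795 and 901 CPM), and Schwann cell markers above for 3 of 6 and below for 0 (617 and 699 CPM). No marker of any list was at 0. The part of these cell types in the differences of Igf2, H19, Dlk1 and Meg3 was not tested.

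**Figure D5:**
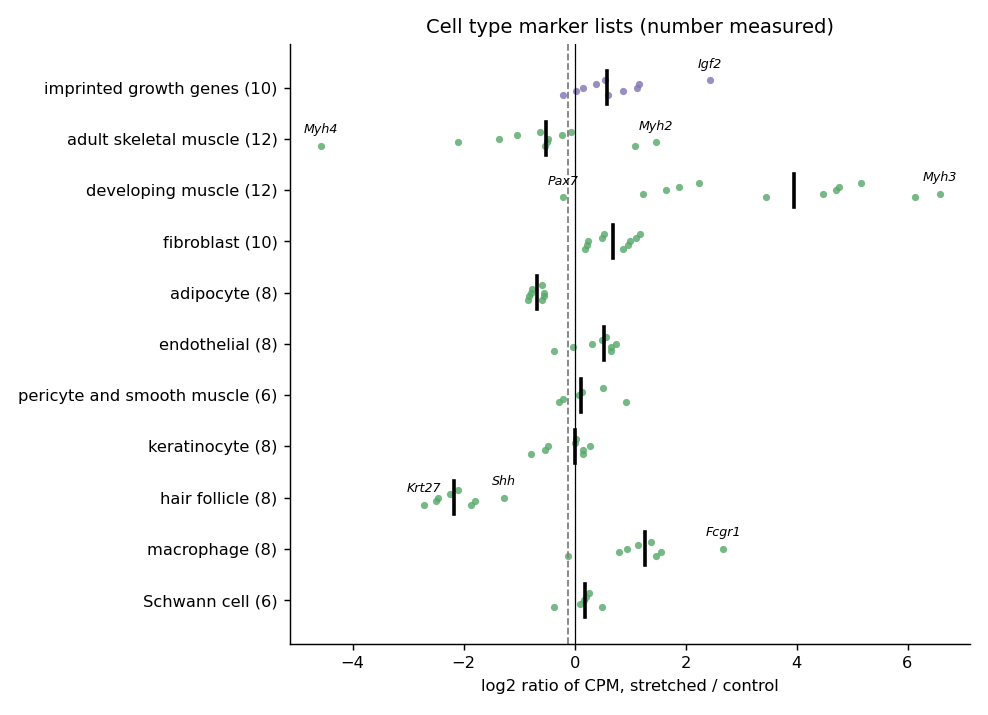
Log2 ratio of CPM in stretched over control skin (x axis) for each marker (points) of 10 cell type lists and for the imprinted growth genes, with list medians as black bars, 1 library per condition. The dashed line is the median of all genes and numbers in brackets count the genes measured. Developing muscle lies farthest to the right with a median of 3.96 and hair follicle farthest to the left with -2.17.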

How the data were processed

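The authors filtered reads of 76 bases on base quality and aligned them to mm10 with TopHat2. Raw counts for 24421 gene symbols were deposited. Neither the counting program nor how it handled strand and reads of overlapping genes is given in the sources used here. The methods describe Cufflinks for estimating and normalizing abundances, and its values were not used here. Samples were grouped by their labels, 1 library per condition. FPKM was computed from the deposited counts with the library total and the union of exons in GENCODE M21 (23384 symbols matched by name, 650 by a synonym, 387 without a length). Counts of 3 or fewer (0.212 CPM in control, 0.258 CPM in stretched skin) were set to 3. Genes were called at EV above 10 and 2-fold or more in either direction; 1 was added here to each FPKM, for EV and for the fold, which the methods do not state, while all other ratios are of CPM with nothing added. Sequences come from RefSeq tables on GRCm38.p6, in which 8 of the 10 members had a promoter entry. The members, lists and motifs were chosen with earlier results of these data known. The rule for naming took all members and, from the lists of other imprinted, IGF axis, imprinted domain and cell cycle genes, those with at least 100 counts and a log2 difference of at least 1 or at most -1, called genes, list ends and set contrasts. Gnas, Ube3a, Tnnt3, Tnni2, Igf2os, Copg2, Zim1, the genes at the edges of the Dlk1 domain, Notch1 and the named markers fall outside it and were chosen after their values were seen. As alternatives, the libraries were scaled with edgeR 4.0.16 (TMM), with DESeq2 1.42.0 (median of ratios), by upper quartile or after removing the top 50 genes from the totals, and other pseudocounts, EV limits and lengths were tried. The script was tested on simulated data. Python 3.11.15, pandas 2.3.3, scipy 1.17.1 and R 4.3.3 were used.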

Additional observations from a re-analysis of the deposited data

How the results depend on the processing

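H19 and Igf2 were called upregulated, and no member downregulated, under every alternative run. The number of genes called changed most with an EV above 100 (137 upregulated, 130 downregulated) and with CPM in place of FPKM (454 and 442). Other scalings raised every log2 difference, by 0.10 (TMM), 0.11 (median of ratios), 0.10 (upper quartile) or 0.06 (totals without the top 50 genes). They moved the median of the maternally expressed members to 0.70 (TMM and upper quartile) and 0.71 (median of ratios). With each of them 8 members lay above 0, the added one being Plagl1, and the number below 0 became 0 except with totals without the top 50 genes, where it stayed at 1. Among genes with at least 200 counts, TMM gave 27.8% above 0 and 29.9% below. Of 50 recomputed values of single members, 14 moved outside their counting interval, all upward, and 0 changed sign. No library could be left out with 1 per condition. No paired analysis was possible because each condition has 1 library. Depth limits Dlk1 most, with 72 and 130 counts.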
